A study of Mus musculus with 9 samples.

Results

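Transcripts of 42 genes of the microtubule and neuronal cytoskeleton were followed in mouse embryos, in the medial ganglionic eminence (MGE), a ventral forebrain zone that gives rise to cortical interneurons, with and without knockout of Ctnnb1. The genes were chosen by function, as tubulins, microtubule-associated and doublecortin proteins, stathmins, collapsin response mediator proteins, neurofilaments and neuronal motors, and each was matched by symbol to 1 of the 48526 gene identifiers in the deposited table. The choice was made with earlier results of these data known, so counts over the set describe it and test nothing about it. RNA was sequenced at embryonic day 14.5 from 5 knockout and 4 control libraries on a C57BL/6 background. Every library carried Nkx2.1-cre, a Cre recombinase under Nkx2-1 regulatory sequence, and the Rosa26-YFP reporter. Knockout embryos were Ctnnb1fl/fl, with both alleles of the gene floxed. Control replicate 4 was Ctnnb1fl/wt, with 1 floxed allele, and control replicates 1 to 3 had none. Cells that never made this Cre keep an intact Ctnnb1. The labels speak of collected cells as well as removed tissue without saying which holds for a library, or whether each library is a separate embryo, so p-values here measure the spread between libraries, which may be technical. In bulk RNA, fewer cells of a type and less RNA per cell cannot be told apart, and this holds for every result below.

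Microtubules are polymers of alpha- and beta-tubulin. Migrating and process-bearing neurons stabilise and bundle them with associated proteins such as MAP2, tau and doublecortin, while stathmins bind free tubulin and promote disassembly. Kinesins carry cargo toward microtubule plus ends and dynein toward minus ends, and the LIS1-NDE1-NDEL1 module regulates dynein when the nucleus moves in migrating neurons and when the spindle is positioned in dividing progenitors. Neurofilaments are the intermediate filaments of neurons, whereas vimentin and nestin are those of progenitors.

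Values are normalized read counts, which are reads per gene divided by a size factor of the library, and depth was alike in all 9 libraries, at 5120585 to 5569444 reads. Fold changes are knockout minus control on log2(normalized count + 1), a scale that understates changes of low genes, with standard errors (SE) and Benjamini-Hochberg adjusted p-values from limma over the 13780 genes with a mean of at least 10. Ctnnb1 itself, which encodes beta-catenin, averaged 6789 ± 828 in knockout libraries, against 9828 ± 197 in controls (SD, n = 5 and 4), and every knockout value lay below all 4 controls (exact two-sided permutation p = 0.00794, the smallest this design allows). Control replicate 1 stood apart by transcripts of cortex and choroid plexus. Its summed cortical excitatory and Cajal-Retzius markers (12 genes) came to 3366, against 328 to 944 in knockouts and 211 to 265 in the other controls, and its summed choroid plexus markers (6 genes) to 2813, against 82.1 to 418 in knockouts and 24.1 to 80.7 in the other controls. The mitochondrial share of counts was 1.39% to 1.53% in knockouts, and 1.99% and 1.88% in control replicates 1 and 4 against 1.39% and 1.37% in the other controls. All 13 MGE markers on a list with Nkx2-1, Lhx6 and Dlx1 were above the filter. Of these 7 were higher and 1, Olig2, lower, beside 17.2% higher and 17.3% lower among all genes tested. The summed count of the 13 markers was 35781 to 44585 in knockouts and 24871 to 40608 in controls.

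Of the 42 genes, 41 passed the filter, and 27 of these were higher and 2 lower in knockout libraries, with 12 that did not pass the test. Among all genes tested 17.2% were higher and 17.3% lower. The median log2 fold change of the 41 genes was 0.60, beside -0.01 over all genes tested. Because the set was chosen with earlier results known, its distance from all genes may depend in part on that choice. Of the 41 genes 27 lay wholly above the controls in knockouts and 2 wholly below, beside 14.5% and 14.6% of all genes tested. These were the same 29 genes that passed the test, so the lack of overlap is no separate result. The increases ran from 0.37 (Map1b) to 2.33 (Mapt) on the log2 scale. Together the 42 genes took 2.47% to 3.0% of the summed counts in knockout libraries and 1.82% to 2.08% in controls.

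**Figure D1:**
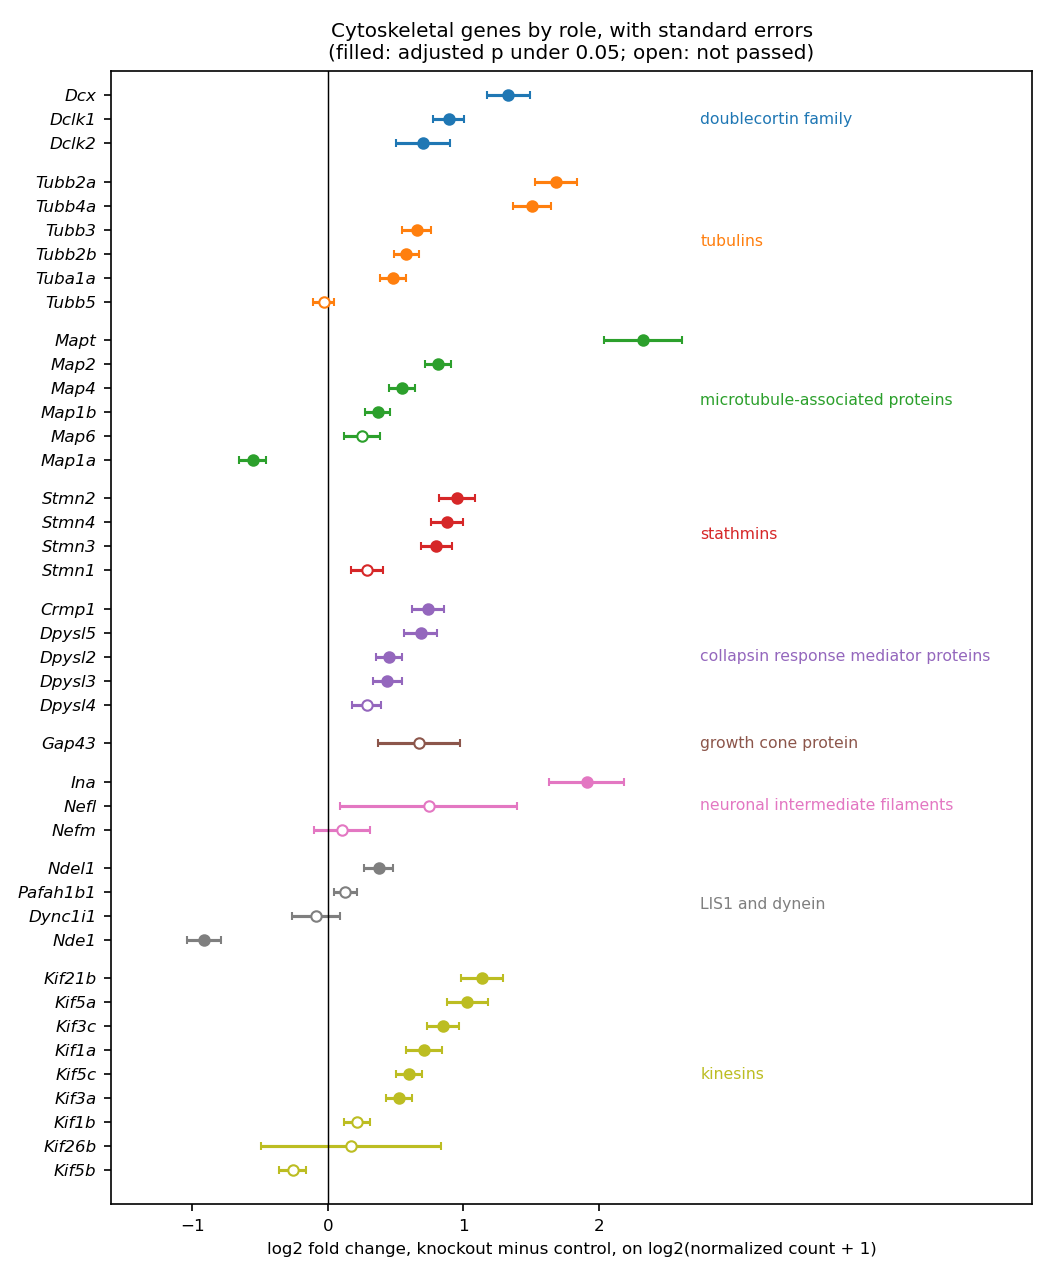
Log2 fold change (horizontal axis, knockout minus control) of the 41 tested genes, ordered by role, with SE as bars; filling marks genes past an adjusted p of 0.05. Filled points lie right of 0 for 27 genes and left of 0 for Nde1 and Map1a; Tubb5 lies near 0 at -0.03.

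The 250 bases before the start site are shown for 5 of the genes, chosen to span the responses: 3 that rose (Dcx, Tubb2a, Stmn3), the tubulin gene that did not pass (Tubb5) and the dynein regulator that fell (Nde1). The sequences are from RefSeq (GRCm38.p6, which is mm10), written 5′ to 3′ on the gene's own strand, at chrX:143933220-143933469 (minus strand), chr13:34078009-34078258 (minus), chr2:181314501-181314750 (minus), chr17:35838302-35838551 (minus) and chr16:14163025-14163274 (plus). Capitals mark matches, on either strand, to the TATA box TATAAA, the GC box GGGCGG, the E-boxes CAGCTG and CAGATG, the TCF/LEF core CTTTGAT and the CCAAT box. Dcx has further annotated starts, of which the first listed is shown. The start sites are those of RefSeq. In the GENCODE M21 annotation Dcx begins at 143933311 and Tubb5 at 35838306 on this strand, so part of each of these windows lies within that gene span.
Dcx: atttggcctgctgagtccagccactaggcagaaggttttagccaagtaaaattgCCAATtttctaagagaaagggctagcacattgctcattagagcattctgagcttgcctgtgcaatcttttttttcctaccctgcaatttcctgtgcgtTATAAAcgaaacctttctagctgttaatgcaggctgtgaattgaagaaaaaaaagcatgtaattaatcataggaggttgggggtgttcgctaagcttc
Tubb2a: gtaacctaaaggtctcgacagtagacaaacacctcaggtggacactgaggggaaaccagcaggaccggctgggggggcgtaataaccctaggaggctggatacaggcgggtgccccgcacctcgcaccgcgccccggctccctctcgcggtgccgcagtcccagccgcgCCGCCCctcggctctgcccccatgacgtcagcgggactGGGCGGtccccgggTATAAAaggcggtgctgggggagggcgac
Stmn3: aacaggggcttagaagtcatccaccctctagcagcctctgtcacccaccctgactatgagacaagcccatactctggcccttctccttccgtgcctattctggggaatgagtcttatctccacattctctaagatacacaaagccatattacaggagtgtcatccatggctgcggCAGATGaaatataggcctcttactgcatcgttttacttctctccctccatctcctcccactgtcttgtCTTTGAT
Tubb5: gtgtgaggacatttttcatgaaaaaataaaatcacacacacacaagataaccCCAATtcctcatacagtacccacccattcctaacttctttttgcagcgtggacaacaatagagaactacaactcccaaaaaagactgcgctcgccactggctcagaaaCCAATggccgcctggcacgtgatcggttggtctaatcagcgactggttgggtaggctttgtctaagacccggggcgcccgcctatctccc
Nde1: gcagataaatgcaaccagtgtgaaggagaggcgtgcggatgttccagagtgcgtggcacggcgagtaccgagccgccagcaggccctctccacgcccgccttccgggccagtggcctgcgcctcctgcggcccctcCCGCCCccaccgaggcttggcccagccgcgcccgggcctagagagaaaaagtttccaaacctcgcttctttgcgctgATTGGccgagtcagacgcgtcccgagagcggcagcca
Windows of this kind were at hand for 26 of the 42 genes, 19 of them genes that rose. TATAAA was present in 5 of the 26 (Dcx, Tubb2a, Map1b, Ndel1 and Kif5c), and in 14.3% of all 27025 genes with a window. The GC box was in 16 of the 26, against 35.4% of all genes, and the CCAAT box in 11, against 37.5%. CAGCTG was found in 3 of the 26 and CAGATG in 5, with 14.7% and 16.3% of all genes. The TCF/LEF core, the letters bound by the DNA-binding partners of beta-catenin, was found in 2, Dclk1 and Stmn3, with 3.72% of all genes. A gene with several windows counts once, with a match in any of them. These matches describe letters in the windows and no binding was measured.

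Doublecortin family proteins bind and stabilise microtubules in migrating neurons and growing processes, and the 3 genes of this family in the set all rose. Dcx (chromosome X, 143855842 to 143933311, mm10, here as for all genes from GENCODE M21) is the X-linked doublecortin gene. Its normalized read count was 7366, 6587, 7537, 8439 and 8575 in knockout replicates 1 to 5, against 2283, 3832, 3869 and 2532 in control replicates 1 to 4. The lowest knockout library lay well above the highest control, although controls 1 and 4 were lower than controls 2 and 3. On the log2 scale Dcx was 1.33 higher (SE 0.157, adjusted p = 0.000124). Dclk1 (chromosome 3, 55242364 to 55539068), a doublecortin-like kinase, had 1503 to 2061 in knockouts and 844 to 1134 in controls (log2 fold change 0.89, SE 0.117). Dclk2, another doublecortin-like kinase, gave the least firm of these calls. It had 10657, 11320, 11006, 9750 and 11624 in knockouts, against 4559, 9030, 9256 and 5193 in controls, where replicates 1 and 4 were far below replicates 2 and 3. It differed by 0.70 on the log2 scale (SE 0.202, adjusted p = 0.0210 by limma). The call was lost without control replicate 4 (0.58, adjusted p = 0.0598) or without knockout replicate 5 (0.68, adjusted p = 0.0679), and against control replicates 2 and 3 alone the value was 0.25 (adjusted p = 0.0642). Per kilobase of exon, Dcx was at 5.08 ± 0.193 times the level of Dclk1 in knockouts and 3.76 ± 0.468 times in controls, without overlap.

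**Figure D2:**
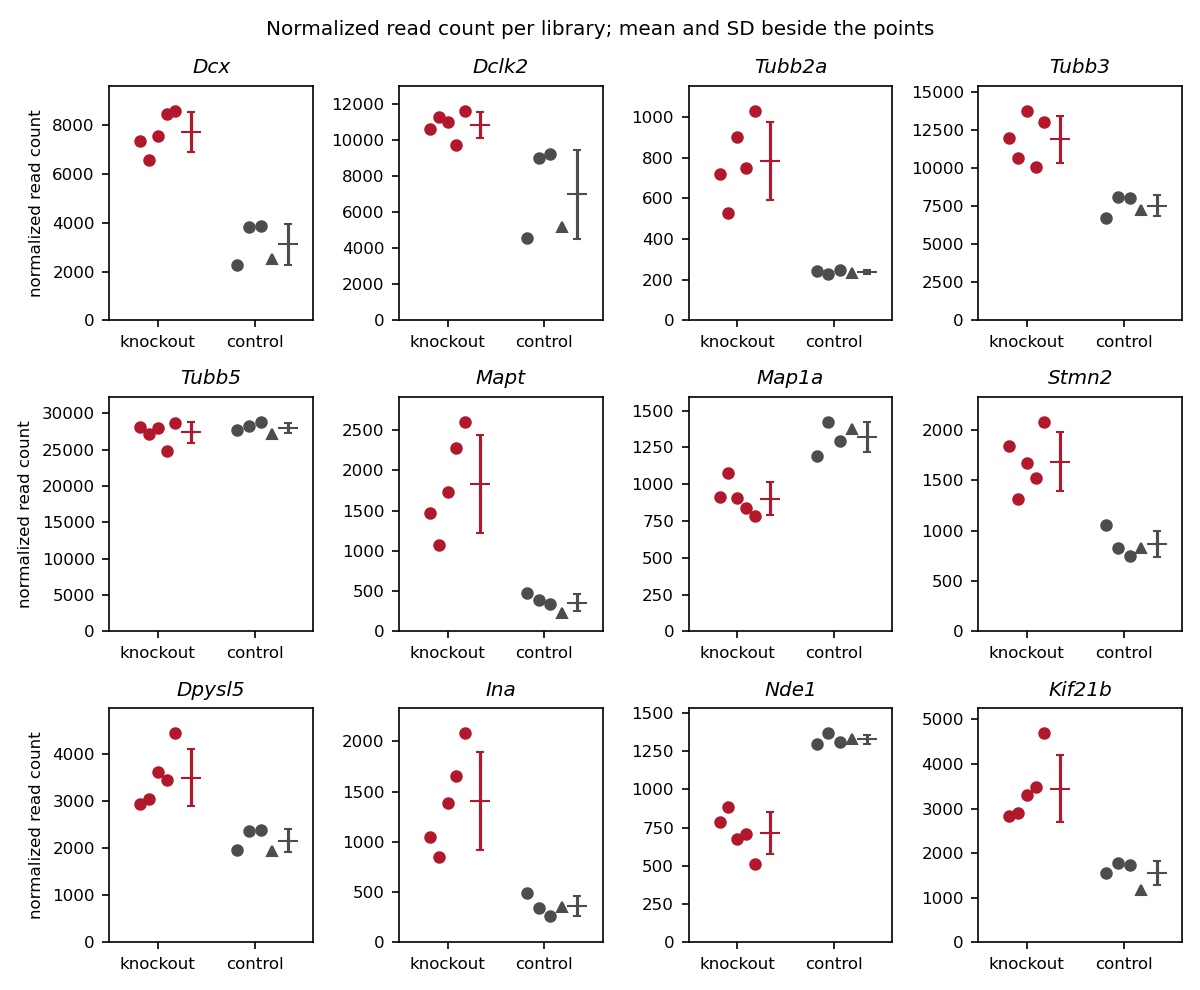
Normalized read counts (vertical axes from 0) of 12 genes, with 1 point per library, knockouts left of controls, and mean and SD to the side; a triangle marks control replicate 4, which carries 1 floxed allele. Knockouts lie below controls for Map1a and Nde1, overlap them for Tubb5 (24888 to 28724 in knockouts, 27118 to 28795 in controls) and lie above them in the other panels.

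Of the 6 tubulin genes in the set 5 rose and Tubb5, the most abundant per kilobase, did not pass. Tubulins outside the set, of which 5 of 9 tested fell, are described with the other lists. Tubb2a (chromosome 13, 34074274 to 34078007), a beta-tubulin of neurons, had 719, 526, 904, 747 and 1029 normalized counts in knockouts and 241, 227, 250.2 and 233 in controls. The controls were nearly level and every knockout library held more than the highest of them, a difference of 1.68 on the log2 scale (SE 0.154, adjusted p = 2.89e-05). Tubb4a, a beta-tubulin best known from mature neurons and oligodendrocytes, had 1128 to 1967 in knockouts and 471 to 628 in controls (1.51, SE 0.140). Tubb3 (chromosome 8, 123411424 to 123422015) encodes the class III beta-tubulin used as a neuronal marker. It had 11979, 10660, 13743, 10106 and 13050 in knockouts, against 6706, 8131, 8063 and 7237 in controls (0.66, SE 0.104, adjusted p = 0.000417). Tubb2b, the neighbour of Tubb2a on chromosome 13, averaged 7420 ± 881 in knockouts and 4934 ± 113 in controls (0.58, SE 0.0938). Tuba1a, the main alpha-tubulin of postmitotic neurons, averaged 9792 ± 1219 in knockouts and 6973 ± 149.8 in controls (0.48, SE 0.0947). Tubb5 (chromosome 17, 35833921 to 35838306), which is broadly expressed in dividing and postmitotic cells, averaged 27372 ± 1497 in knockouts and 27956 ± 717 in controls (-0.03, SE 0.0762, adjusted p = 0.774). Without knockout replicate 4 its value was 0.0020.

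Near-identical copies limit what single tubulin genes can show. Of the 50-base words in Tuba1a transcripts, 75.5% also occur in transcripts of other genes, Tuba1c first among them. The share is 49.6% for Tubb2a and 36.9% for Tubb2b, each shared mostly with the other, and 18.9% for Stmn1, which has a copy named Gm11223. It is below 4% for the remaining members other than Ina, Nefl, Nefm, Kif3c and Kif26b. What the counting did with reads that match several genes is not stated in the labels or the processing notes.

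The make-up of beta-tubulin transcripts differed between groups. Levels per kilobase of merged exons were summed over 7 genes, the 5 beta-tubulins of the set with Tubb4b and Tubb6. The sum was 19306 ± 1691 per kilobase in knockouts and 15402 ± 585 in controls. Tubb5 made up 42.7% ± 2.29 of it in knockouts and 54.6% ± 1.07 in controls, ranging from 40.2% to 46.1% in knockouts and from 53.6% to 56.1% in controls. Tubb3 made up 32.9% ± 1.55 in knockouts and 26.2% ± 1.47 in controls, and Tubb2b 16.7% ± 0.975 in knockouts and 14.0% ± 0.258 in controls. The shares of Tubb4a (3.63% ± 0.606 in knockouts, 1.58% ± 0.150 in controls) and Tubb2a (2.50% ± 0.452 in knockouts, 0.960% ± 0.0482 in controls) were small and higher in each knockout library. Tubb4b, a beta-tubulin outside the set, took 1.23% ± 0.216 in knockouts and 2.43% ± 0.247 in controls. Since shares sum to a fixed total, a lower share of Tubb5 stands beside a level that did not pass the test.

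**Figure D3:**
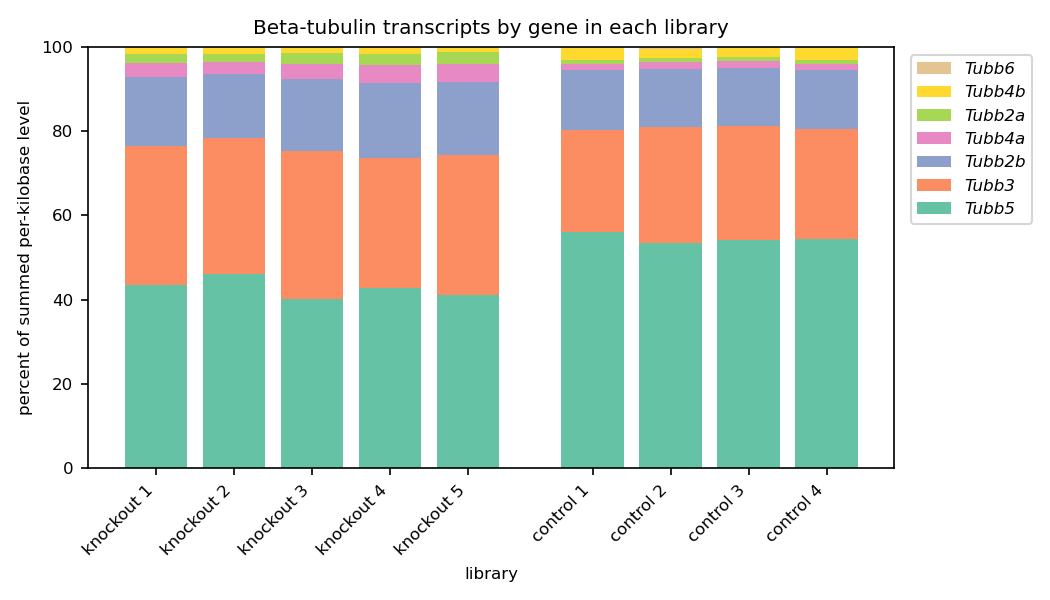
Share of each of 7 beta-tubulin genes in the summed per-kilobase level (vertical axis, percent) for each library, knockouts left of controls. Tubb5 holds 40.2% to 46.1% in the 5 knockout libraries and 53.6% to 56.1% in the 4 controls, and Tubb3 holds 30.9% to 35.2% in knockouts and 24.2% to 27.5% in controls.

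Among 6 structural microtubule-associated proteins 4 rose, 1 fell and 1 did not pass. Mapt (chromosome 11, 104231390 to 104332090) encodes tau, which stabilises axonal microtubules. It had 1469, 1076, 1731, 2271 and 2597 normalized counts in knockouts, against 480.1, 384, 337 and 233 in controls. The difference of 2.33 on the log2 scale (SE 0.290, adjusted p = 0.000579) was the largest of the 41 genes, with the knockout mean 5.10 times the control mean. Map2, whose protein is enriched in dendrites and cell bodies, had 5446 to 6568 in knockouts and 3053 to 3972 in controls (0.82, SE 0.0968, adjusted p = 7.34e-05). Per kilobase, the ratio of Mapt to Map2 was 0.432 to 0.868 in knockouts and 0.156 to 0.343 in controls. Map4, the broadly expressed relative of MAP2 and tau, also rose, with 1901 ± 228 in knockouts and 1293 ± 84.6 in controls (0.55, SE 0.0984). Map6, the stable tubule only protein, had 303 to 474 in knockouts and 260.2 to 339 in controls and did not pass (0.25, adjusted p = 0.157).

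The paralogues Map1a and Map1b, whose products link microtubules to other structures, were called in opposite directions. Map1b is the form of growing axons, and Map1a is known for its rise after birth in rodent brain. Map1b had 10295, 10239, 10013, 11112 and 11082 in knockouts and 7105, 9215, 8699 and 7804 in controls (0.37, SE 0.0899, adjusted p = 0.00605). Against control replicates 2 and 3 alone it did not pass (0.24, adjusted p = 0.0610). Map1a (chromosome 2, 121289600 to 121310832) had 912, 1075, 905, 837 and 783 in knockouts, against 1194, 1421, 1293 and 1376 in controls. Every knockout library was below every control (log2 fold change -0.55, SE 0.0992, adjusted p = 0.000875). The Map1a locus overlaps Ppip5k1 on the opposite strand, whose mean was 99.9 normalized counts, and 1.83% of Map1a words are shared with it.

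Stathmins sequester tubulin dimers, and 3 of the 4 genes rose. Stmn2 (chromosome 3, 8509360 to 8561606), which encodes the growth cone protein SCG10, had 1839, 1314, 1668, 1521 and 2074 in knockouts and 1054, 831, 749.6 and 825 in controls (0.95, SE 0.131, adjusted p = 0.000200). Stmn4 had 439 to 667 in knockouts and 257 to 327 in controls (0.88, SE 0.118), and Stmn3 had 1488 to 2163 in knockouts and 952 to 1078 in controls (0.80, SE 0.114). Stmn1, the form that dividing progenitors also express, overlapped between groups at 892 to 1275 in knockouts and 706 to 988 in controls (0.29, adjusted p = 0.0696). It passed without control replicate 1 (0.36, adjusted p = 0.0386) or without knockout replicate 2 (0.35, adjusted p = 0.0343).

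Collapsin response mediator proteins bind tubulin and act in axon growth and guidance, and 4 of 5 genes rose. Crmp1 had 5897, 5230, 7043, 5864 and 7278 in knockouts, against 3257, 4184, 4256 and 3310 in controls (0.74, SE 0.118, adjusted p = 0.000418). Dpysl5, also called CRMP5, had 2927 to 4436 in knockouts and 1929 to 2383 in controls (0.69, SE 0.120). Smaller increases were found for Dpysl2 (0.45, SE 0.0975), which encodes CRMP2, and Dpysl3 (0.44, SE 0.105), which encodes CRMP4. Against control replicates 2 and 3 alone Dpysl3 did not pass (0.24, adjusted p = 0.0710). Dpysl4 had 781 to 947 in knockouts and 575 to 821 in controls (0.29, adjusted p = 0.0571), and passed without control replicate 3 (0.38, adjusted p = 0.0189).

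Gap43, a protein of growth cone membranes, did not pass over all libraries (0.67, SE 0.301, adjusted p = 0.116). It stood at 405, 365, 371, 319.6 and 613 in knockouts, against 479, 177, 195 and 247 in controls, so that the overlap came from control replicate 1 alone. That is the library with cortical and choroid plexus transcripts. Without it Gap43 passed, at 0.98 (SE 0.190, adjusted p = 0.00352). Whether cortical cells account for its level there was not tested.

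Neuronal intermediate filament genes were uneven. Ina (chromosome 19, 47014698 to 47025327) encodes alpha-internexin, a filament protein that appears early in neurons. It had 1044, 853, 1385, 1651 and 2083 normalized counts in knockouts and 494, 346, 260.3 and 354 in controls. Each knockout library exceeded each control, a difference of 1.91 on the log2 scale (SE 0.276, adjusted p = 0.00105). The neurofilament triplet genes were low. Nefm, the medium subunit, had 96.9 to 195 in knockouts and 102 to 171 in controls (0.10, adjusted p = 0.722), and Nefl, the light subunit, 13.8 to 76.6 in knockouts and 6.03 to 38.9 in controls (0.75, SE 0.653, adjusted p = 0.411). Nefh, the heavy subunit, had 11.9, 5.77, 6.02, 4.78 and 16.1 in knockouts and 3.03, 3.97, 1.0 and 1.99 in controls, and was the gene under the filter. Per kilobase, Ina was 8.29 to 23.9 times the level of Nefm in knockouts and 3.68 to 6.87 times in controls. In the annotation Nefl and Nefm overlap each other on opposite strands and share 31.8% and 18.6% of their words, and 12.8% of Ina words are shared with Nt5c2, which overlaps it on the opposite strand and had a mean of 349 normalized counts, close to the Ina mean of 363 in controls.

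The dynein regulators Nde1 and Ndel1 were called in opposite directions. Nde1 (chromosome 16, 14163275 to 14192928), which with LIS1 serves mitosis and nuclear movement in neural progenitors, had 787, 882, 672, 709 and 513 in knockouts, against 1297, 1367, 1309 and 1331 in controls. The controls lay close together, every knockout library was below them, and the difference on the log2 scale was -0.92 (SE 0.126, adjusted p = 0.000187). Ndel1 (chromosome 11, 68821434 to 68871858), its paralogue with known roles in migrating neurons, had 283, 294, 298, 306 and 366 in knockouts and 213, 257, 222 and 260.1 in controls (0.38, SE 0.106, adjusted p = 0.0137). Ndel1 did not pass against control replicates 2 and 3 alone (0.37, adjusted p = 0.0614) or with the replicate number as a block (0.31, adjusted p = 0.0527). The per-kilobase ratio of Ndel1 to Nde1 was 0.354, 0.329, 0.437, 0.425 and 0.703 in knockouts, against 0.162, 0.185, 0.167 and 0.192 in controls. Nde1 overlaps Marf1 on the opposite strand, which had a mean of 646 normalized counts, and 0.839% of Nde1 words are shared with it. Pafah1b1, which encodes LIS1, had 1774 to 2027 in knockouts and 1520 to 1844 in controls (0.13, adjusted p = 0.249). Dync1i1, a dynein intermediate chain, was low at 31.7 to 39.4 in knockouts and 31.9 to 43.2 in controls (-0.09, adjusted p = 0.738).

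Of the 9 kinesin genes in the set 6 rose, 0 fell and 3 did not pass. Kif21b (chromosome 1, 136131389 to 136177998), a kinesin that limits microtubule growth, had 2835, 2893, 3314, 3473 and 4690 in knockouts and 1549, 1773, 1728 and 1166 in controls (1.14, SE 0.157, adjusted p = 0.000289). Knockout replicate 5 was the highest and control replicate 4 the lowest. Kif21a, the paralogue of Kif21b outside the set, was called lower (-0.43, SE 0.123, adjusted p = 0.0155). It had 637 to 1011 in knockouts and 943 to 1077 in controls, so the groups overlapped. The kinesin-1 heavy chains showed unequal changes. Kif5a, a neuronal form, had 1085 to 1711 in knockouts and 507 to 809 in controls (1.03, SE 0.151), and the neuronal Kif5c had 1318 to 1740 in knockouts and 923 to 1093 in controls (0.60, SE 0.0970). Kif5b, the ubiquitous form, had 651 to 862 in knockouts and 833 to 1049 in controls (-0.26, adjusted p = 0.0562). It passed as lower without control replicate 1 (-0.31, adjusted p = 0.0363) or without knockout replicate 2 (-0.30, adjusted p = 0.0368). Per kilobase, Kif5a was 1.44 to 3.0 times the level of Kif5b in knockouts and 0.552 to 1.0 times in controls.

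The kinesin-2 motor genes Kif3c (929.8 to 1381 in knockouts, 552 to 712 in controls) and Kif3a (536 to 657 in knockouts, 352 to 436 in controls) rose, by 0.85 (SE 0.119) and 0.53 (SE 0.0951). Kif3b, a kinesin-2 motor gene outside the set, had 332 to 383 in knockouts and 274 to 360 in controls and did not pass (0.16, adjusted p = 0.225). For Kif3c 39.6% of the words are shared, chiefly with the antisense gene 1110002L01Rik, whose mean was 26.1. Unlike the other within-family ratios given here, the per-kilobase ratio of Kif3c to Kif3a overlapped, at 0.790 to 1.25 in knockouts and 0.713 to 0.817 in controls. Kif1a, a carrier of synaptic vesicle precursors, had 1624 to 2340 in knockouts and 874 to 1305 in controls (0.71, SE 0.131). Its broadly expressed relative Kif1b had 2473 to 2995 in knockouts and 1976 to 2574 in controls and did not pass (0.22, adjusted p = 0.0943). Kif26b, an atypical kinesin, was near the filter with 11.0 to 49.4 in knockouts and 5.02 to 55.6 in controls (0.17, adjusted p = 0.865). Control replicate 1 was its highest library, and the sign of its fold change turned when control replicate 2, control replicate 3 or knockout replicate 5 was left out (-0.14, -0.33 and -0.18).

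The order of levels was led by tubulins in both groups. Per kilobase of merged exons, Tubb5 came first at 8227 ± 450 in knockouts and 8403 ± 215 in controls. Tubb3 (6374 ± 824 in knockouts, 4033 ± 367 in controls) and Tuba1a (5431 ± 676 in knockouts, 3868 ± 83.1 in controls) followed and overlapped each other in range. Tubb2b, with 3235 ± 384 in knockouts and 2151 ± 49.4 in controls, came next, apart from its neighbours. The places of Tuba1a, Tubb2a and Tubb2b, with 75.5%, 49.6% and 36.9% of words shared, may depend on how shared reads were counted. Stmn3 and Dpysl3 followed it and overlapped each other, at 1603 ± 273 and 1262 ± 78.3 in knockouts and 911 ± 49.7 and 938 ± 153 in controls. From there to the low end most neighbours overlapped. Mapt stood in place 22 of 42 in knockouts and in place 36 in controls, Tubb2a in place 13 in knockouts and 21 in controls, and Nde1 in place 23 in knockouts and 11 in controls. Nefl, Dync1i1, Nefh and Kif26b were the lowest in both groups, from 1.45 ± 1.08 to 11.0 ± 7.79 per kilobase in knockouts and from 0.626 ± 0.321 to 10.7 ± 1.37 in controls.

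Within groups, the order of libraries was alike for many of the 27 genes that rose, and for other genes that rose too. Among knockouts, replicate 5 had the highest value for 21 of them and replicate 2 the lowest for 20. Over all 2369 genes called higher these shares were 54.5% and 54.6%, and over all genes tested 25.6% and 21.4%. The median deviation of these genes from the control mean, on the log2 scale, was 0.68, 0.53, 0.87, 0.78 and 1.04 in knockout replicates 1 to 5. Ctnnb1 in the same libraries was at 72.3%, 77.9%, 72.6%, 66.9% and 55.7% of the control mean, lowest in replicate 5 and highest in replicate 2. Among controls, replicates 1 and 4 were both below replicates 2 and 3 for 18 of the 27 genes, as for 53.9% of all genes called higher and 26.2% of all genes tested. The other 9 did not have this order, and Mapt, Ina and Stmn2 were highest in control replicate 1 (480.1, 494 and 1054). The median deviation of the 27 genes was -0.13, 0.15, 0.10 and -0.10 in replicates 1 to 4. With 5 knockout libraries no correlation is given, and a link between Ctnnb1 and these genes across libraries was not tested. Knockout replicate 5 also stood apart on several cell type lists, given below.

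**Figure D4:**
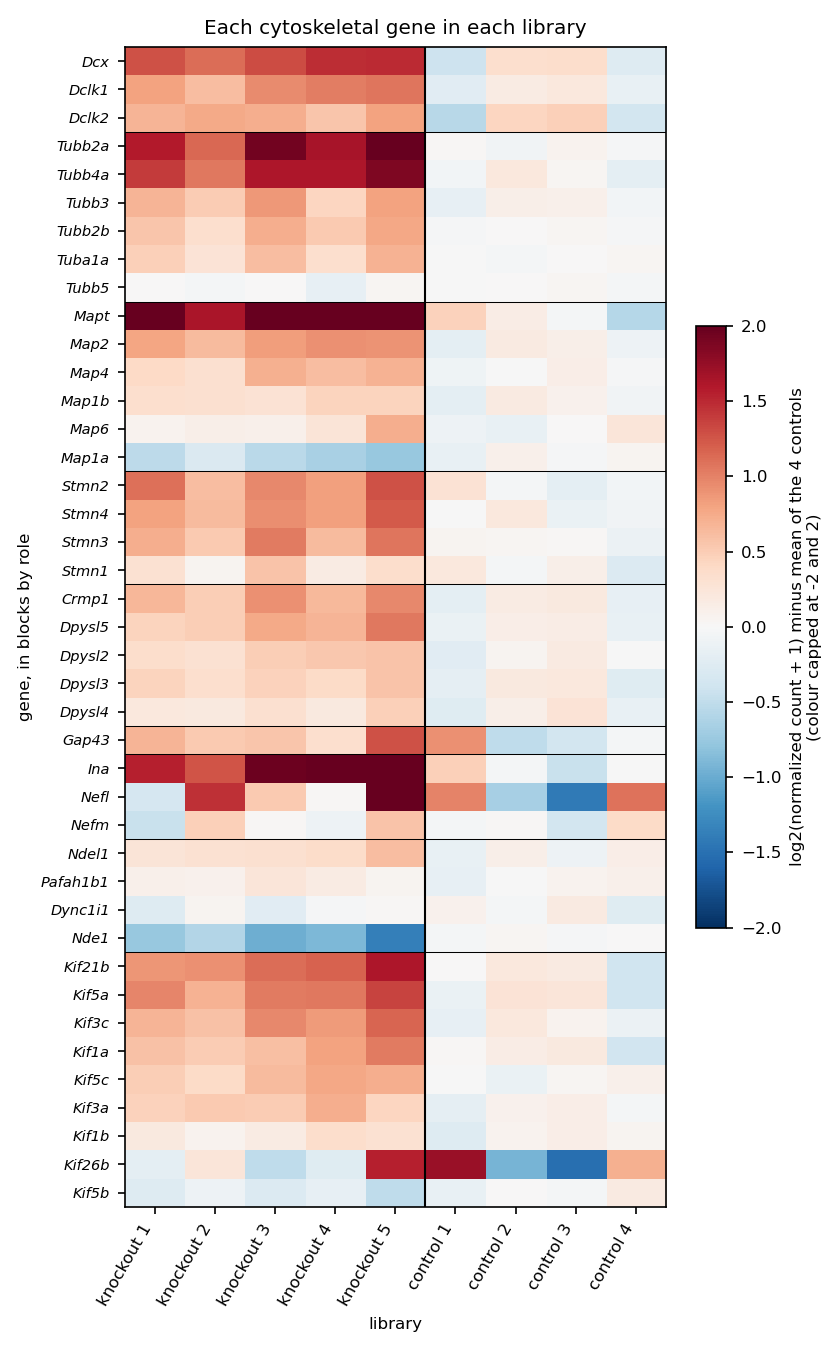
Log2(normalized count + 1) minus the mean of the 4 controls (colour) for the 41 tested genes in each library, in blocks by role, knockouts left of the black line and controls right of it. Knockout replicate 5 has the highest value of 21 of the 27 genes that rose, and control replicates 1 and 4 lie below replicates 2 and 3 for 18 of them.

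Cell type markers moved beside these genes, where 17.2% of all genes tested were higher and 17.3% lower. Of 10 markers of postmitotic neurons outside the set (such as Elavl3, Snap25 and Myt1l), 8 rose and 0 fell, and their summed count was 15788, 14299, 17367, 17249 and 18891 in knockouts, against 8220, 10584, 10155 and 8267 in controls. Knockout replicate 5 was again highest and replicate 2 lowest, and control replicates 1 and 4 were below 2 and 3. All 10 markers of cycling cells fell, with sums of 16079, 19227, 14217, 13710 and 9482 in knockouts and 25075, 25338, 25644 and 27467 in controls. Of 10 radial glia markers 6 fell and 0 rose, with sums of 11173 to 13812 in knockouts and 17571 to 23262 in controls. None of 6 endothelial, 6 pericyte and mesenchyme, 5 erythroid or 6 tested microglial markers passed, while Olig1 rose among 4 of oligodendrocyte precursors and 2 of 4 tested striatal markers, Ebf1 and Bcl11b, rose. Knockout replicate 5 stood apart on several of these lists. Its summed count was 2781 for pericytes and mesenchyme, 6814 for erythroid cells and 342 for microglia, against 1091 to 1539, 2592 to 4117 and 176 to 233 in the other knockouts and 1046 to 1682, 1900 to 6782 and 282 to 399 in controls. Its cortical sum of 944 was the highest of the knockouts. Without this library 26 cytoskeletal genes were higher and 2 lower, against 15.1% and 14.8% of all genes. None of these lists had a defining marker at 0 in all libraries. The part of any of these cell types in the results for cytoskeletal genes was not tested.

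The counts were also taken without the control that held cortical and choroid plexus transcripts. Without control replicate 1, 29 of the 42 genes were higher and 3 lower, against 15.2% and 14.6% of all genes. Against control replicates 2 and 3 alone, without the heterozygous control as well, 24 were higher and 2 lower, against 10.1% and 8.08% of all genes. Relative to the comparison with all controls, the calls of Dclk2, Map1b, Dpysl3 and Ndel1 were lost there and that of Gap43 was gained. Without a filter on low values 29 were higher and 2 lower, against 7.94% and 7.28% of all genes, and with the replicate number as a block 26 and 2, against 13.3% and 12.2%. With a further requirement of at least 1 on the log2 scale, 7 genes were higher (Dcx, Tubb2a, Tubb4a, Mapt, Ina, Kif5a and Kif21b) and 0 lower, against 4.23% and 1.86% of all genes.

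Other genes of the microtubule system were counted on 7 lists chosen by function, to be read beside the 17.2% of all genes that were higher and 17.3% that were lower. Tubulins outside the set mostly went the other way. Of 9 tested, 5 fell, 1 rose and 3 did not pass (median log2 fold change -0.65). Tubb4b had 489 ± 53.9 in knockouts and 779 ± 50.1 in controls (-0.68, SE 0.0978), and the alpha-tubulins Tuba1b (-0.71, SE 0.119) and Tuba1c (-0.67, SE 0.133), which are close copies of Tuba1a, also fell. The one that rose was Tubg2, a gamma-tubulin, with 59.9 ± 12.9 in knockouts and 22.8 ± 3.87 in controls (1.35, SE 0.202). The sum of the 14 genes on this list was 1640 to 1987 in knockouts and 2552 to 2952 in controls.

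Enzymes that fold or modify tubulin gave 8 genes that rose and 1 that fell of 26 tested (median 0.23). The tubulin acetyltransferase gene Atat1 had 1912 ± 334 in knockouts and 984 ± 165 in controls (0.96, SE 0.135), and Ttll1, of the complex that polyglutamylates tubulin, had 350 ± 42.0 in knockouts and 199.7 ± 7.49 in controls (0.80, SE 0.103). Tpgs2, a further subunit of that complex, rose by 0.55 on the log2 scale, and the glutamylase gene Ttll4 fell by 0.49. The count of 8 was 4 without control replicate 4. Among 35 other microtubule-binding and severing proteins 17 rose and 5 fell (median 0.28). The plus-end protein gene Mapre3 (1.13, SE 0.137), the minus-end protein gene Camsap3 (0.96, SE 0.136) and Map9 (0.96, SE 0.143) rose. Gtse1, of the mitotic microtubule plus-end, had 290 ± 60.6 in knockouts and 514 ± 23.0 in controls (-0.85, SE 0.136).

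Of 24 dynein and dynactin subunits and adaptors tested 8 rose, 3 fell and 13 did not pass (median 0.19). Among those that passed were Dctn1 (0.42, SE 0.0931), Dync1h1 (0.36, SE 0.102) and Dctn2 (0.31, SE 0.0940), which rose, and the dynein regulator Nudc (-0.51, SE 0.100), which fell. The 8 became 4 without control replicate 1, control replicate 4 or knockout replicate 3 and 5 without knockout replicate 1 or 5, and 2 against control replicates 2 and 3 alone, and the 3 became 1 without control replicate 4 or knockout replicate 3. Of 16 further kinesins and light chains outside the mitotic list 6 rose and 3 fell (median 0.18). Against control replicates 2 and 3 alone 3 were higher and 1 lower. Klc1 (0.46, SE 0.0875), a kinesin light chain, Kifap3 (0.48, SE 0.104), the adaptor of kinesin-2, Kif2a (0.40, SE 0.0884), a depolymerising kinesin of neurons and spindles, and Kifc2 (0.93, SE 0.212) rose.

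All 14 mitotic kinesins tested fell (median -0.73), or 13 without control replicate 4. Kif11, the spindle motor, had 1242 ± 244 in knockouts and 2157 ± 114 in controls (-0.82, SE 0.128), and Kif23, of the cytokinetic central spindle, 603 ± 87.7 in knockouts and 997 ± 84.6 in controls (-0.73, SE 0.111). Kif2c and Kif18b fell by 0.71 and 0.72 on the log2 scale. Vim and Nes, which also stand on the radial glia list, fell among the intermediate filament genes. Genes of this kind outside the neurofilaments gave 4 that fell and 1 that rose of 8 tested (median -0.10). Vim had 4353 ± 468 in knockouts and 8169 ± 1344 in controls (-0.90, SE 0.114), Nes 2032 ± 309 in knockouts and 4123 ± 684 in controls (-1.02, SE 0.130), and the nuclear lamin gene Lmnb1 fell by 0.53. Synm, which encodes synemin, rose (0.52, SE 0.163, adjusted p = 0.0226) but did not pass without control replicate 3, control replicate 4 or knockout replicate 3.

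**Figure D5:**
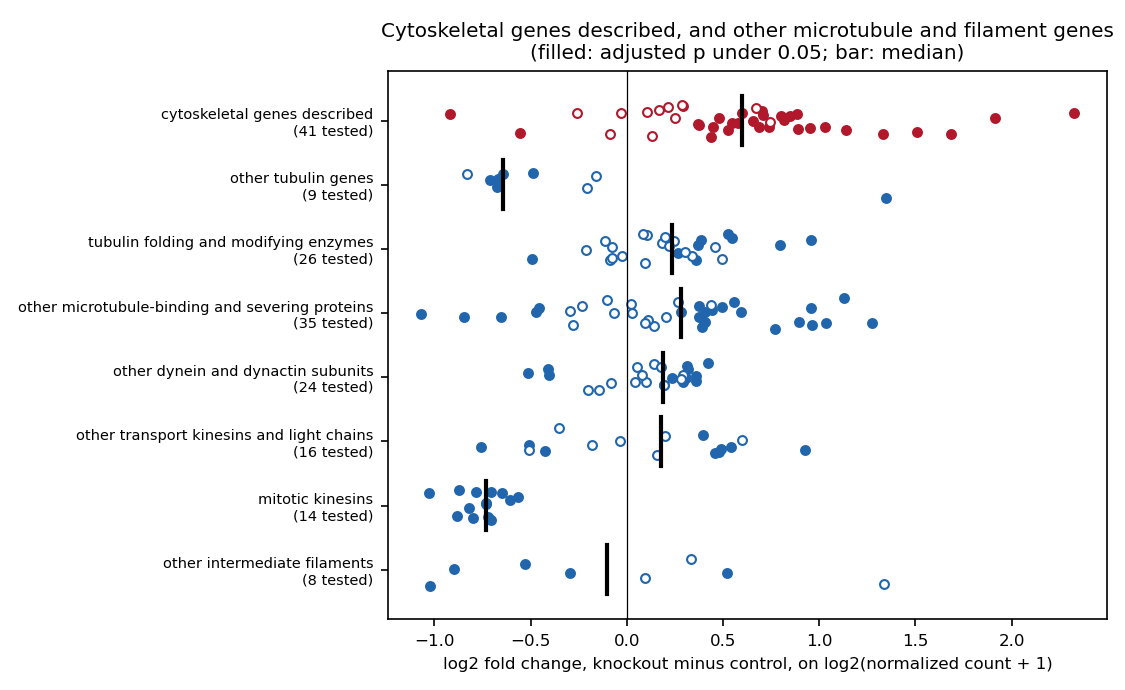
Log2 fold change (horizontal axis, knockout minus control) of the 41 cytoskeletal genes described and of the tested genes on 7 other lists; filling marks genes past an adjusted p of 0.05, and bars are medians. The 41 genes have a median of 0.60, the 14 mitotic kinesins all lie below 0 with a median of -0.73, and tubulins outside the set have a median of -0.65.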

How the data were processed

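RNA-seq of 9 mouse MGE libraries was analysed from 1 table. Each deposited value is a gene's signal in 1 library, its read count divided by the authors by that library's size factor, as the values show: each is a whole multiple of its library's step (largest deviation 1.62e-05). Tools named per the submitters' processing notes are DESeq2, R 3.4.0, HTSeq 0.9.1 and TopHat2 2.1.1, and the build is mm10. Their roles, the annotation and the strand setting are not stated, so reads from stretches shared by overlapping or antisense genes cannot be told apart. Kits used 500 ng of total RNA, per the labels.

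Of 48526 identifiers 48058 matched a symbol. limma 3.58.1 (trend, robust; R 4.3.3, statmod 1.5.0) was run, two-sided, on log2(value + 1) over the 13780 genes averaging 10 or more, knockout against control, adjusted by Benjamini-Hochberg, at a threshold of 0.05; the procedure was tested on simulated data. No count model was fitted, since the unit check refuses a step close to 1, which most columns have. The refusal does not mean that the values of those columns are other than whole reads. Errors beside means are SD. Levels per kilobase used merged exons of GENCODE M21. Shared words are 50-base stretches found in transcripts of another gene.

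The genes and lists were chosen with earlier results of these data known. Every gene of the set is named, and from each other list up to 4 genes past the threshold with the smallest p. Kif3b and Kif21a, relatives of genes in the set, are named as well. The within-family ratios, shares of beta-tubulins, motifs and promoters shown were chosen after values were seen. Alternatives were a minimum mean of 50 or none, pseudocounts of 0.5 and 8, upper-quartile and TMM scaling, plain limma (no trend, not robust), a replicate block, each library left out, and control replicates 2 and 3 only.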

Additional observations from a re-analysis of the deposited data

Results flagged for a closer look

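The highest or lowest library of each group was set against the others in the group for 71 genes (142 groups), and 4 lay farther off than Dixon's 95% limit, where chance alone flags about 1 in 20 groups. Knockout replicate 5 was far above the other knockouts for Map6 (474, against 303 to 343), Ndel1 (366, against 283 to 306) and Kif26b (49.4, against 11.0 to 19.2). Knockout replicate 4 was far above the others for Kif3a (657, against 536 to 570.2). By limma, Ndel1 had an adjusted p of 0.0301 without knockout replicate 5 and Kif3a of 0.00302 without knockout replicate 4, and Map6 and Kif26b did not pass with all libraries.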

How the results depend on the processing

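Over the alternatives the count of cytoskeletal genes that were higher ran from 24 to 29, the count lower from 2 to 3 and the median log2 fold change from 0.53 to 0.64, apart from the fold threshold of 1, which left 7 and 0. With 1 library left out, 26 to 29 were higher and 2 to 3 lower, and Ctnnb1 lay between -0.59 and -0.47. Pseudocounts, both scalings and limma without trend and robust changed the call or sign of 0 of the 41 genes. Without a filter 29 were higher, Dclk2 was lost and Stmn1, Dpysl4 and Nefh passed. Deviations from the group means in same-numbered libraries had correlations of -0.12, -0.09, 0.14 and -0.04 over the genes tested. These were not set against the correlations of differently numbered libraries, so they do not decide whether the numbers pair libraries. In the fit with the replicate block, knockout replicate 5 has no partner and adds nothing to the contrast. There 26 genes were higher and 2 lower, and Nefm (-0.011) and Kif26b (-0.18) turned in sign, neither passing. With 1 library left out, Nefm ranged from -0.016 to 0.24, Kif26b from -0.33 to 0.75 and Tubb5 from -0.050 to 0.0020, none passing in any of these fits. Against control replicates 2 and 3 only, 1387 of all genes were higher and 1112 lower, beside 2369 and 2380, with fewer samples, and with 1 library left out 1857 to 2390 were higher and 1686 to 2417 lower.

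Counts on the other lists moved more. Tubulin folding and modifying enzymes: 4 higher with the block or control replicates 2 and 3 only, 2 lower without a filter, 4 to 11 higher with 1 library left out. Dynein and dynactin: 4 higher without trend and robust, 4 higher and 1 lower with the block, 2 and 1 with control replicates 2 and 3 only, 4 to 8 higher and 1 to 3 lower with 1 library left out. Control replicates 2 and 3 only gave 10 higher and 3 lower microtubule-binding genes and 3 higher and 1 lower of the further kinesins and light chains. Synm, the filament gene that rose, gave a count of 0 without a filter, at a minimum mean of 50, with the block, with control replicates 2 and 3 only and in some fits without 1 library (0 to 1); Tubg2 was under the minimum mean of 50, leaving 0 tubulins higher. Where no cause is named, the cause was not tested. The count model was not run. Nefl, Dync1i1, Nefh and Kif26b are too low here for small changes to be seen.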
